A study of Bos taurus with 11 samples.

Results

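The 8 genes described here encode enzymes of cholesterol synthesis: HMGCS1, IDI1, FDPS and FDFT1 of the early steps, which end in squalene, and SQLE, CYP51A1, MSMO1 and DHCR7 of the late steps, which turn squalene into cholesterol. A probe set was taken for a gene where the platform annotation gave that gene's symbol and no other. This left 7 of the 8 genes, with 10 probe sets among the 24016 that were not array controls. IDI1 was not analysed here. Where a gene had several probe sets, the brightest on average stands for it, and chosen in the same way 9155 genes are represented in the whole table. All 7 main probe sets lay above 5.52, the upper limit of the dimmest 40% of probe sets.

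Animal cells build cholesterol from acetyl-CoA. The early steps make mevalonate and then isoprenoid units, which also feed dolichol, ubiquinone and prenylated proteins, and the late steps are reserved for sterols. When membranes of the endoplasmic reticulum run short of sterol, the carrier SCAP takes the transcription factor SREBP-2, the product of SREBF2, to the Golgi, where the proteases MBTPS1 and MBTPS2 release its active part, and most genes of the pathway are transcribed more. INSIG proteins hold SCAP back when sterol is plentiful. In the uterus, cholesterol is a component of the membranes of growing and repairing tissue and the starting material of steroids.

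The samples were whole uterine endometrium, the inner lining of the womb, from 11 multiparous Holstein-Friesian cows killed 14 ± 0.4 days after calving (as the treatment protocol gives it, while the series title gives a range of days that starts there), with 1 Affymetrix array of total RNA per cow. In the severe negative energy balance group (n = 6) cows were limited to 25 kg of silage a day, with 4 kg of concentrate and 3 milkings. In the mild negative energy balance group (n = 5) cows had free access to grass silage, received 8 kg of concentrate per day and were milked 1 time a day. Allocation was random, both regimes started on day 2 after calving, mean parity was 4.7, previous yield was 6477 ± 354 kg, and silage and concentrate (21% crude protein) had the same composition in both groups. Feed and milking frequency differed together, so they cannot be told apart. The labels name individual cows, and p-values measure the spread between these animals.

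All values are RMA signals in log2 units, in which a step of 1 is a doubling. The median signal was 6.20 on every array, and pairs of arrays correlated at 0.948 to 0.991. Probe sets at the 3' end of control transcripts exceeded those at the 5' end, a measure that grows as RNA degrades, by 0.59 ± 0.14 in severe cows (SD, n = 6), against 0.56 ± 0.07 in mild cows (SD, n = 5). Markers of the tissue were present: stromal fibroblast markers averaged 11.17 to 11.50 per severe cow and 10.93 to 11.57 per mild cow, with 0 of 10 dim, and epithelial markers averaged 7.11 to 8.46 per severe cow and 7.69 to 8.49 per mild cow, with KRT8 the 1 dim marker of 11. Over the whole table limma called 0 of 24016 probe sets at an adjusted p under 0.05 (0%), and 3085 had an unadjusted p under 0.05. Without severe 1 it called 16 probe sets and without severe 3 it called 2, and 0 of these were member genes.

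All 7 measured enzymes had a lower mean in severe than in mild cows, by 0.20 to 0.60 log2 units, and limma's adjusted p, taken over the whole table, passed 0.05 in 0 of them. The median log2 difference, severe minus mild, was -0.41, against -0.0038 over all 9155 genes, of which 51.1% were lower in severe cows. At an unadjusted p under 0.05 there were 3 of the 7, MSMO1, FDFT1 and HMGCS1, all lower in severe cows, where 7.46% of all genes were lower at that p and 8.45% higher. Adjusted p ran from 0.307 to 0.626. In 0 of the 7 genes did every severe cow lie below every mild cow, against 0.437% of all genes. In bulk tissue, fewer cells that make a transcript and less of it per cell cannot be told apart.

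**Figure D1:**
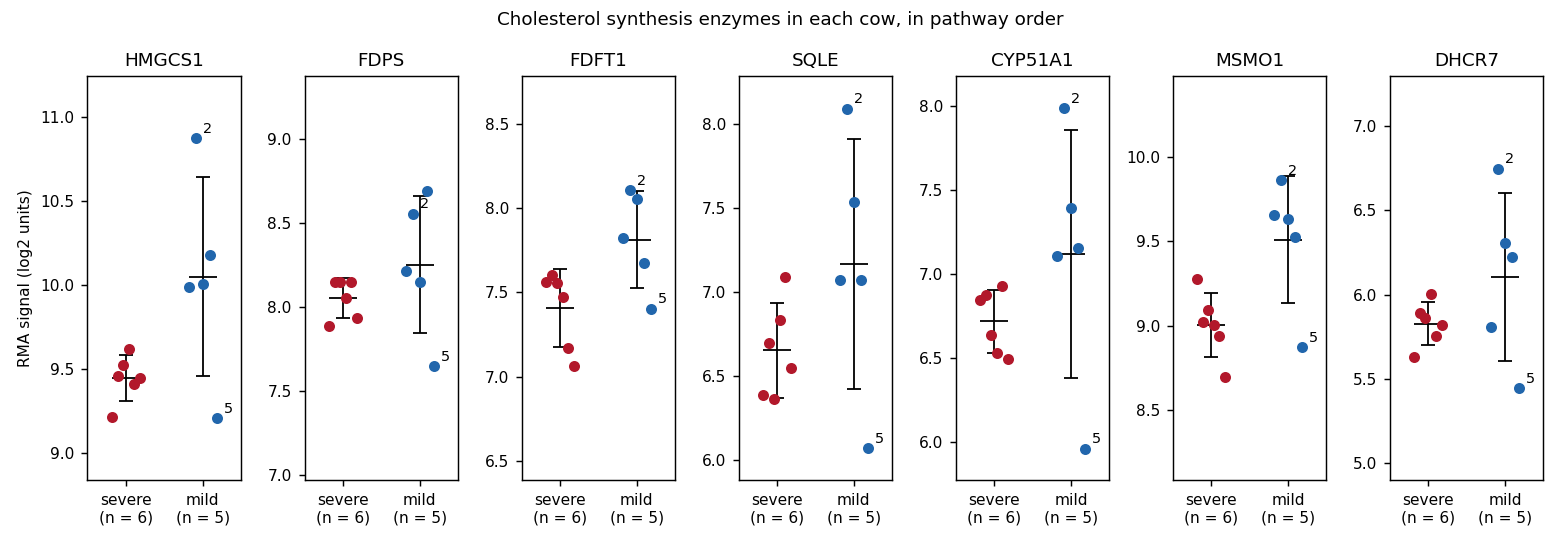
RMA signal in log2 units of the 7 measured enzymes, early to late, with 1 point per cow, severe cows (n = 6) left of mild cows (n = 5), and the mean with its SD as a black bar; each panel spans the same number of log2 units. The mild group is more spread out than the severe group in all 7 genes, and mild 5 lies at the bottom of its group in each.

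The early steps come first. HMGCS1 is the cytosolic synthase that makes HMG-CoA. Its values lay at 9.22 (lowest), 9.45 (median) and 9.62 (highest) in severe cows, against 9.99, 10.87, 10.00, 10.18 and 9.21 in mild cows 1 to 5. Every severe cow thus lay below mild cows 1 to 4, while mild 5 lay below all severe cows. Severe cows averaged 9.45 ± 0.13 (SD, n = 6), against 10.05 ± 0.59 (SD, n = 5) in mild cows. The log2 difference was -0.60 ± 0.22 (SE), or 0.658 of the mild level (limma unadjusted p = 0.0194, adjusted p = 0.332). The other HMGCS1 probe set was dim, at 3.65 on average, and differed by -0.32.

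FDPS, farnesyl diphosphate synthase, makes the isoprenoid from which sterols and several other products branch. It lay at 7.89, 8.10 and 8.15 (lowest, median and highest) in severe cows, against 8.21, 8.55, 8.15, 8.69 and 7.65 in mild cows 1 to 5. The groups overlapped, with mild 5 below and mild 3 level with the highest severe cow. The log2 difference of -0.20 was the smallest of the 7, with a 95% interval from -0.55 to 0.15 that includes 0 (limma adjusted p = 0.626).

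FDFT1, squalene synthase, commits farnesyl diphosphate to sterols. It lay at 7.06, 7.52 and 7.60 in severe cows, against 7.82, 8.11, 8.06, 7.68 and 7.40 in mild cows 1 to 5. Mild cows 1 to 4 lay above all severe cows, and mild 5 fell inside the severe range. The log2 difference was -0.41 ± 0.15 (SE, limma unadjusted p = 0.0165, adjusted p = 0.320). A further FDFT1 probe set of similar brightness, averaging 7.42, lay at 6.83, 7.04 and 7.46 in severe cows, against 7.82, 7.93, 8.28, 7.86 and 7.30 in mild cows, so 5 of 6 severe cows were below the lowest mild cow. Its log2 difference was -0.77 ± 0.17 (SE, limma unadjusted p = 0.000644, adjusted p = 0.269). The remaining FDFT1 probe set was dim, at 3.25 on average, and differed by -0.07.

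Of the late steps, SQLE, squalene epoxidase, performs the first oxygenation and is a known control point of the pathway. It lay at 6.36, 6.62 and 7.09 in severe cows, against 7.07, 8.09, 7.53, 7.07 and 6.07 in mild cows 1 to 5. Only mild 2 and mild 3 were above all severe cows. The log2 difference was -0.51 ± 0.29 (SE), with a 95% interval from -1.15 to 0.12 (limma adjusted p = 0.476).

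CYP51A1, lanosterol 14-alpha demethylase, lay at 6.49, 6.74 and 6.93 in severe cows, against 7.11, 7.99, 7.39, 7.15 and 5.96 in mild cows 1 to 5. Mild cows 1 to 4 again lay above all severe cows and mild 5 below them all. The log2 difference was -0.40 ± 0.28 (SE), with a 95% interval from -1.01 to 0.20 (limma adjusted p = 0.559).

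MSMO1, the methylsterol monooxygenase that starts removal of the C-4 methyl groups, had the smallest p of the main probe sets. It lay at 8.70, 9.01 and 9.27 in severe cows, against 9.66, 9.86, 9.64, 9.52 and 8.87 in mild cows 1 to 5. Mild 5 was inside the severe range and the other mild cows were above it. The SD was 0.19 in severe cows (n = 6), against 0.38 in mild cows (n = 5). The log2 difference was -0.51 ± 0.16 (SE), or 0.704 of the mild level (limma unadjusted p = 0.00885, adjusted p = 0.307).

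DHCR7 is the reductase that converts 7-dehydrocholesterol to cholesterol. It lay at 5.63, 5.84 and 6.00 in severe cows, against 5.81, 6.75, 6.31, 6.22 and 5.44 in mild cows 1 to 5. The ranges overlapped at mild 1 and mild 5. The log2 difference was -0.28 ± 0.19 (SE), with a 95% interval from -0.69 to 0.14 (limma adjusted p = 0.558).

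The spread differed between the groups as well as the mean. The SD of the 7 genes ran from 0.12 to 0.28 in severe cows and from 0.29 to 0.74 in mild cows, and it was smaller in severe cows in 7 of 7 genes, against 49.8% of all genes. CYP51A1 had an SD of 0.19 in severe and 0.74 in mild cows, and HMGCS1 one of 0.13 in severe and 0.59 in mild cows. The wide mild spread came from cows that kept their place from gene to gene. Mild 2 was the highest of all 11 cows in 6 of 7 genes, the exception being FDPS, where mild 4 was highest. Mild 5 was the lowest mild cow in 7 of 7 genes and below every severe cow in 5 of 7, the exceptions being FDFT1 and MSMO1. In 5 of 7 genes, all but SQLE and DHCR7, the other 4 mild cows all lay above every severe cow, by a negligible margin for mild 3 in FDPS. This count sets mild 5 aside after its values were seen, and the share of all genes with such a pattern was not counted. The 7 genes also varied together between mild cows, so they are not separate observations. Limma uses 1 spread for both groups, so the unequal spread is not part of its p-values.

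Leaving out 1 mild cow moved the sizes, so the values without mild 5 and without mild 2 are given. Without mild 5 all 7 genes had an unadjusted p under 0.05, in place of 3, with log2 differences from -0.81 in HMGCS1 to -0.35 in FDPS, and limma adjusted p between 0.117 and 0.225. Mild 5 was the lowest mild cow in all 7 genes, so leaving it out had to enlarge each difference. The count of 7 follows in part from that choice. Without mild 2 the log2 differences were -0.42 in MSMO1, -0.40 in HMGCS1, -0.33 in FDFT1, -0.28 in SQLE, -0.19 in CYP51A1 and -0.12 in both FDPS and DHCR7. Without mild 2, 3 of 7 had a limma unadjusted p under 0.05, as with all cows. The whole-table count moved as well: 2213 to 3794 probe sets had an unadjusted p under 0.05 on leaving out single cows, against 3085 with all. All 7 enzymes stayed lower in severe cows without mild 5 and without mild 2.

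Early and late steps were then set side by side. Each cow's early level is the mean over HMGCS1, FDPS and FDFT1, and its late level the mean over SQLE, CYP51A1, MSMO1 and DHCR7, each gene taken as its distance from its mean over all cows. The early level averaged -0.18 ± 0.11 (SD, n = 6) in severe cows, against 0.22 ± 0.40 (SD, n = 5) in mild cows, a difference of -0.40 log2 units. The late level averaged -0.19 ± 0.10 in severe and 0.23 ± 0.58 in mild cows, a difference of -0.43. Late minus early differed by -0.023 between the groups, less than its SD of 0.12 in severe and 0.22 in mild cows, and leaving out single cows moved it between -0.091 (without mild 5) and 0.033 (without mild 2). No difference between early and late steps was seen beyond that spread. Among mild cows the late level covered the wider range, 0.93 in mild 2 to -0.66 in mild 5, while the early level was 0.69 in mild 2 and -0.40 in mild 5.

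**Figure D2:**
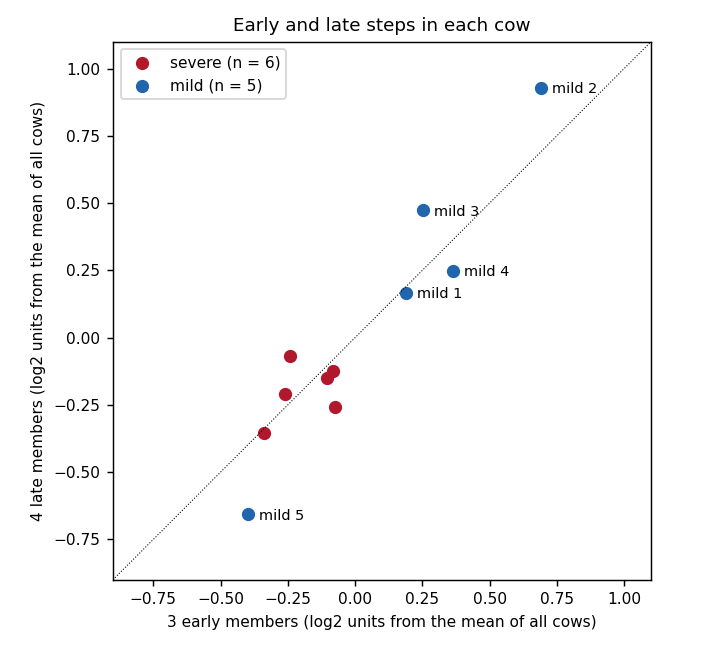
Mean of the 4 late members against the mean of the 3 early members in each cow, both in log2 units from the mean of all cows, with the dotted line where both are equal. The 6 severe cows lie close together below 0 on both axes, and the mild cows stretch along the line from mild 5 at the lower end to mild 2 at the upper.

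With group means subtracted, all 21 pairs of the 7 genes correlated above 0 over the 11 cows (Pearson r from 0.42 for FDPS with FDFT1 to 0.94 for HMGCS1 with DHCR7, median 0.75). These values are descriptive and share the arrays and their normalization. Over the 5 mild cows alone the median r was 0.91, and over the 6 severe cows alone it was 0.25, with 13 of 21 pairs above 0. Some pairs were close among severe cows too, such as HMGCS1 with DHCR7 (0.96) and FDFT1 with MSMO1 (0.83), and others were opposed, such as HMGCS1 with CYP51A1 (-0.59). Mild 2 and mild 5 lay farthest from the median of the members' mean deviation from their group means. Without these 2 cows the median r over 9 cows was -0.02 and 10 of 21 pairs were above 0. As the cows were picked for their extreme members' levels, a lower r without them follows in part from that choice.

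Across the 7127 genes above the dim limit, the 6 whose deviations from the group means were most like the mean of the 7 enzymes were GEMIN6 (r = 0.95 over 11 cows), ARFIP2 (0.92), SREBF2 (0.92), NDUFS4 (0.92), SNRPA1 (0.91) and NSDHL (0.91), where the median gene had r = 0.11. SREBF2 encodes the transcription factor of the pathway and NSDHL a later sterol enzyme. GEMIN6 takes part in the assembly of spliceosomal particles and SNRPA1 belongs to such a particle. NDUFS4 belongs to respiratory complex I, and ARFIP2 binds small GTPases. Without mild 2 and mild 5 these r were 0.53 for GEMIN6, 0.32 for ARFIP2, 0.15 for SREBF2, 0.46 for NDUFS4, 0.17 for SNRPA1 and 0.41 for NSDHL. Over the 6 severe cows alone they were 0.41 for GEMIN6, 0.25 for ARFIP2, 0.88 for SREBF2, 0.37 for NDUFS4, 0.40 for SNRPA1 and -0.73 for NSDHL.

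Beside the members, 8 further enzymes of the pathway were measured out of 14 on the list. Of these, 6 were lower and 2 higher in severe cows, with a median log2 difference of -0.19 (-0.092 without mild 2 and -0.041 with the cell division level as a covariate), and 0 passed the adjusted threshold. MVK, mevalonate kinase, lay at 7.05 to 7.42 in severe cows, against 7.40, 7.76, 7.35, 7.50 and 7.51 in mild cows 1 to 5, and here mild 5 was not low. Its log2 difference was -0.28 ± 0.10 (SE, limma unadjusted p = 0.0149, adjusted p = 0.317), and its other probe sets were at -0.52 and, on a dim signal, 0.02. ACAT2, the thiolase of the first step, differed by -0.28 and MVD, the decarboxylase that ends the mevalonate steps, by -0.19. PMVK, which phosphorylates mevalonate a further time, was 0.20 higher in severe cows, with severe 4 at 7.01 and the other severe cows at 6.29 to 6.53. LSS, lanosterol synthase, was 0.10 higher by its main probe set but -0.24 and -0.14 by its other probe sets.

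In the order of the pathway, 13 of 15 measured enzymes were lower in severe cows. Up to squalene 6 of 7 were lower, with a median of -0.28, and from squalene on 7 of 8 were lower, with a median of -0.26. At a limma unadjusted p under 0.05 there were 3 of 7 up to squalene and 1 of 8 from squalene on, all lower in severe cows. Of all genes 7.46% were lower at that p. The medians were close, so these counts are not read as a difference between early and late steps.

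**Figure D3:**
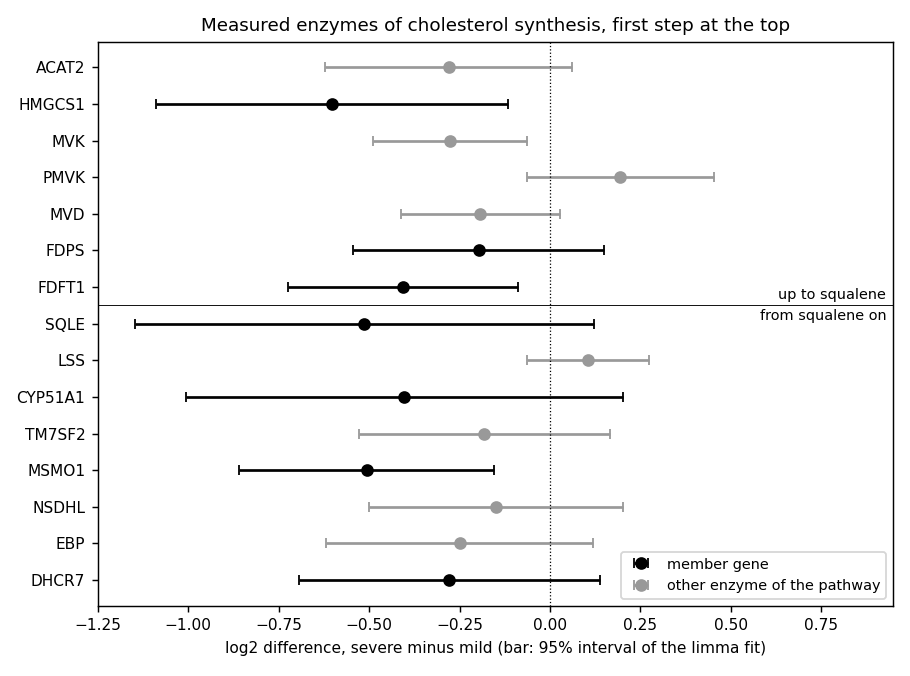
Log2 difference, severe minus mild, with its 95% interval from limma, for 15 enzymes of cholesterol synthesis in pathway order, member genes in black and the others in grey. Points left of 0 are lower in severe cows, as 13 of 15 are, and the intervals of HMGCS1, MVK, FDFT1 and MSMO1 do not reach 0.

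The regulators of the pathway did not differ in a common direction. Of 8 measured genes 5 were lower and 3 higher in severe cows, with 0 at an unadjusted p under 0.05, and the median of -0.026 turned to 0.018 under some alternatives. SREBF2 lay at 7.44 to 7.57 in severe cows, against 7.80, 7.94, 7.73, 7.55 and 7.15 in mild cows 1 to 5. Its severe cows were tightly grouped (SD of 0.05 in severe and 0.30 in mild cows) and mild 5 was again the lowest, with a log2 difference of -0.12 (limma adjusted p = 0.713). A dim SREBF2 probe set differed by 0.06. SREBF1, whose product favours fatty acid genes, differed by -0.15, SCAP by -0.13 (its dimmer probe sets by -0.11, -0.04 and 0.08) and INSIG2, which retains SCAP, by 0.23.

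Genes of cholesterol uptake and traffic had the opposite sign in 6 of 7 cases, with a median of 0.21 (0.070 with the neutrophil level and 0.063 with the cell division level as a covariate), and 1 had an unadjusted p under 0.05. Of all genes 8.45% were higher in severe cows at that p. VLDLR, a receptor for lipoproteins and other ligands, lay at 8.06, 8.68, 8.55, 9.14, 10.00 and 9.44 in severe cows 1 to 6, against 7.86, 8.30, 7.81, 8.00 and 8.63 in mild cows 1 to 5. Severe 1 and severe 3 lay within the mild range and the other severe cows above it, and the log2 difference was 0.86 ± 0.30 (SE, limma unadjusted p = 0.0162, adjusted p = 0.319). Its other probe sets were dim, at 0.20, 0.13 and -0.09. NPC1 and NPC2, which move cholesterol out of lysosomes, differed by 0.21 and 0.25. STARD10, a phospholipid transfer protein, was the exception at -0.63.

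Of 12 listed genes of efflux, esterification and oxysterols 9 were measured, and ABCA1, ABCG1 and CYP7B1 were not analysed here. Of the 9 genes 7 were higher and 2 lower in severe cows, and their median of 0.061 turned to -0.017 at its lowest alternative. SOAT1, which esterifies cholesterol for storage, lay at 7.60, 8.19, 7.50, 8.14, 8.19 and 8.08 in severe cows 1 to 6, against 7.53 to 7.65 in mild cows. Severe cows 2, 4, 5 and 6 were above all mild cows and severe 3 below them, with a log2 difference of 0.36 ± 0.14 (SE, limma unadjusted p = 0.0219, adjusted p = 0.335). APOE, the apolipoprotein of local lipid transport, differed by 0.39 and HSD3B7, an enzyme of oxysterol and bile acid metabolism, by 0.14. NCEH1, which hydrolyses cholesteryl esters, was at -1.10 ± 0.47 (SE, limma adjusted p = 0.367) by its main probe set and 0.41 by the other, so its direction is not settled.

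Fatty acid synthesis genes shared the sign of the enzymes described here. Of 9 measured, 7 were lower in severe cows, against 51.1% of all genes. Their median was -0.24 (-0.072 with the neutrophil level as a covariate). At an unadjusted p under 0.05 there were 4 of the 9, all lower, where 7.46% of all genes were lower at that p. Of the 9 genes 0 passed the adjusted threshold. FASN, fatty acid synthase, averaged 8.53 ± 0.36 (SD, n = 6) in severe cows, against 9.13 ± 0.35 (SD, n = 5) in mild cows. Its log2 difference was -0.60 ± 0.20 (SE, limma adjusted p = 0.308). ACLY, which supplies cytosolic acetyl-CoA to both pathways, differed by -0.27, SCD, the desaturase, by -0.63 and ELOVL6, an elongase with a dim signal, by -0.58.

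**Figure D4:**
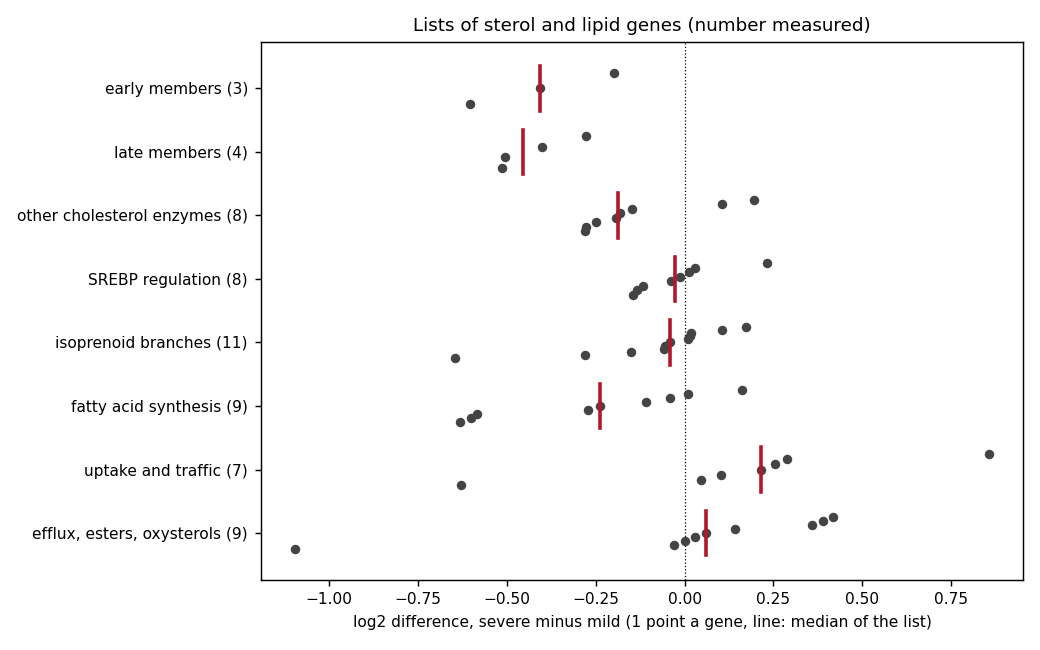
Log2 difference, severe minus mild, of each measured gene (point) and the median (line) in the member genes and in lists of other sterol and lipid genes. The member genes all lie left of 0, the regulators lie around 0, and 6 of 7 uptake and traffic genes lie to the right.

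Markers of other cells moved with the groups. Neutrophil markers were higher in severe cows in 6 of 6 cases, their mean level running from 7.32 to 10.10 in severe and from 5.31 to 6.73 in mild cows with no overlap, and TREM1 was the 1 dim marker. Macrophage markers were higher in 7 of 7 (8.26 to 10.52 in severe, 7.92 to 9.39 in mild cows), T and NK cell markers in 10 of 10 (6.30 to 7.54 in severe, 5.67 to 6.58 in mild cows) and B and plasma cell markers in 4 of 4 (6.93 to 10.00 in severe, 6.44 to 8.52 in mild cows). Of the lymphoid markers 1 of the T and NK cell list and 2 of the B and plasma cell list were dim. Endothelial markers were higher in 5 of 7 and smooth muscle markers in 1 of 5. All 9 measured cell division genes were lower, at 6.13 to 7.47 in severe and 6.68 to 8.29 in mild cows, and mild 2 was the highest cow and mild 5 the lowest mild cow there too. Among severe cows the cell division level was lowest in severe 4 (6.13) and severe 2 (6.38). In these cows the 7 enzymes averaged -0.13 and -0.11 from the mean of all cows. Those were the highest values among severe cows, which spanned only -0.35 to -0.11. The part of cell division in the result was not tested. With the cell division level as a covariate the log2 differences were -0.39 in HMGCS1, -0.34 in MSMO1, -0.33 in FDFT1, -0.22 in SQLE, -0.11 in DHCR7, -0.06 in FDPS and -0.05 in CYP51A1. With the neutrophil level as a covariate they were -0.79 in SQLE, -0.65 in HMGCS1, -0.36 in DHCR7, -0.29 in both MSMO1 and FDPS, -0.18 in CYP51A1 and -0.14 in FDFT1. Under either covariate 0 of 7 had a limma unadjusted p under 0.05. The whole-table count at that p fell too, from 3085 of 24016 probe sets without a covariate. It was 1230 with the neutrophil level and 1346 with the cell division level. So few remained under either covariate that 0 of 7 does not set the enzymes apart from other genes. For the neutrophil level the count of 0 of 7 decides nothing for a further reason. Every severe cow exceeded every mild cow, and the fit can hardly tell level from group. In HMGCS1 the limma unadjusted p rose from 0.0194 to 0.154, although the log2 difference went from -0.60 to -0.65. The differences in SQLE, FDPS and DHCR7 also grew, and those in FDFT1, CYP51A1 and MSMO1 shrank. The part of other cells in the result was not tested further. With the epithelial level as a covariate the log2 differences ran from -0.59 in HMGCS1 to -0.21 in FDPS, with the same 3 genes at an unadjusted p under 0.05.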

How the data were processed

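Total RNA of 11 endometria was measured on 1 array each. The authors deposited RMA values in log2 units, with RMA named in the submitters' processing notes and the scale read from the range of 2.63 to 14.6. For the RMA software its version is not given in the sources used here. An array has no read depth, so precision is limited by how many arrays there are, and RMA's quantile normalization hides any change common to all transcripts. Of 24128 probe sets 112 controls were left out. In the platform annotation 13292 of the rest had 1 symbol, 86 several and 10638 were not listed; a RefSeq gene table (ARS-UCD2.0, names only) matched 13263 and renamed 0.

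The severe group was set against the mild group in a two-sided test on all 11 arrays (lmFit, then eBayes, of limma 3.58.1 under R 4.3.3), with Benjamini-Hochberg adjustment over 24016 probe sets and a threshold of 0.05; the script was tested on simulated data. List scores and correlations are descriptive. Named genes are the members, up to 4 genes with the smallest p in each list, and the 6 most like the members; LSS and the dim markers KRT8 and TREM1 were named after their values were seen. Members and lists were chosen with earlier results of these data known. Replicate numbers follow the sample order and only name cows. The alternatives dropped the dimmest 40% of probe sets, repeated quantile normalization, set a common median, used a trended, robust eBayes, used array weights, took the epithelial or neutrophil level as a covariate, left out each cow, averaged a gene's probe sets, or used the members' median. The cell division covariate and the alternatives for list medians were added after seeing the data.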

Additional observations from a re-analysis of the deposited data

How the results depend on the processing

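All 7 enzymes stayed lower in severe cows under all 20 alternatives, and 0 passed the adjusted threshold in any; their limma adjusted p ran from 0.117 to 0.989. On leaving out single cows the log2 differences ranged from -0.81 to -0.40 in HMGCS1, -0.35 to -0.088 in FDPS, -0.51 to -0.33 in FDFT1, -0.79 to -0.28 in SQLE, -0.69 to -0.19 in CYP51A1, -0.67 to -0.42 in MSMO1 and -0.44 to -0.12 in DHCR7, those of early steps from -0.56 to -0.28 and of late steps from -0.65 to -0.25. On leaving out single cows the count of probe sets at an adjusted p under 0.05 ranged from 0 to 16, and at an unadjusted p under 0.05 from 2213 to 3794. The unadjusted count was 3850 with array weights, 1230 with the neutrophil and 1346 with the cell division level as a covariate. As the neutrophil level nearly stands in for the group, a lower count with it says little. With the cell division level the median of other cholesterol enzymes was -0.041 and that of uptake and traffic genes 0.063; the cause was not tested. No paired analysis was possible because each cow was in 1 group only, and the blocks used in allocation are not given per cow. Differences of dim probe sets are compressed.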

Other observations

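FDPS also feeds branches that make other isoprenoids, and 11 of their 13 listed genes were measured. Of these 6 were lower and 5 higher in severe cows, and the median of -0.041 turned to 0.021 without mild 2 and to 0.0075 with array weights. COQ2, which attaches the isoprenoid tail in ubiquinone synthesis, stood out from the rest by size. It lay at 8.04, 7.93, 8.20, 7.75, 8.03 and 7.83 in severe cows 1 to 6, against 9.02, 8.92, 8.65, 8.26 and 8.21 in mild cows 1 to 5. Every severe cow was below every mild cow, by a narrow margin at severe 3 and mild 5, and the log2 difference was -0.65 ± 0.15 (SE, limma unadjusted p = 0.0013, adjusted p = 0.284). Its dim probe set differed by -0.13. PDSS2, a subunit of the enzyme that builds the same tail, differed by -0.28, GGPS1, which makes geranylgeranyl diphosphate for protein prenylation, by -0.15, and DHDDS, which makes dolichol chains, by 0.17 on a dim signal.

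Among cell division genes CCNB1, the mitotic cyclin B1, lay at 8.56, 5.99, 8.14, 4.93, 6.94 and 6.42 in severe cows 1 to 6, against 8.38, 9.70, 9.25, 8.88 and 7.34 in mild cows 1 to 5. Severe 1 and severe 3 were within the mild range and the others below it, with a log2 difference of -1.88 ± 0.63 (SE, limma unadjusted p = 0.0117, adjusted p = 0.308). TYMS, thymidylate synthase, differed by -0.46 (limma adjusted p = 0.308).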
